A study of Saccharomyces cerevisiae with 6 samples.

Results

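The 10 genes described here encode the transcription factor Met4, its partners Met28, Met31 and Met32, the F-box protein Met30 that restrains it, and 5 transporters of methionine, cysteine, S-methylmethionine and S-adenosylmethionine (*MUP1*, *MUP3*, *MMP1*, *SAM3* and *YCT1*). They were chosen by gene name for these roles, with earlier results of these data known. All 10 were found among the 7122 genes of the expression table. RNA sequencing of *Saccharomyces cerevisiae* was done in 3 samples of each strain, WT and *ths1-C268A*, which the study calls biological replicates and names A, B and C. Values of single samples are listed below in the order A, B, C. All 6 cultures were pregrown in rich medium (YPD) at 30 °C and then kept at 37 °C for 2 h. The response to heat itself, and whether it differs between the strains, is therefore not measured here. The *ths1-C268A* strain (the mutant) was made by genome editing and has Ala in place of a Cys of the ThrRS editing site. ThrRS attaches Thr to its tRNA, and the editing site removes Ser attached in error. The study also describes the mutant enzyme as less stable under heat, so a loss of editing and a loss of ThrRS cannot be told apart in these samples.

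The parent of both strains is BY4741, a laboratory strain in which *HIS3*, *LEU2*, *MET17* and *URA3* are deleted. *MET17* encodes the enzyme that joins sulfide to O-acetylhomoserine, so both strains depend on sulfur amino acids from the medium. In all 6 samples *URA3*, *LEU2* and *MET17* had a listed value of 0. *HIS3*, whose deletion is partial, had 94.7 ± 9.88 FPKM in WT samples against 240.2 ± 38.5 FPKM in *ths1-C268A* samples (SD, n = 3 each). *THS1*, the edited gene, had 168.6 ± 14.0 FPKM in WT samples against 243 ± 38.1 FPKM in *ths1-C268A* samples (SD, n = 3 each), but its level cannot check the labels, since the edit changes a codon. Of the MATa genes, *MFA1* had 941 ± 134 FPKM in WT against 1702 ± 316 FPKM in the mutant (SD, n = 3 each). *MFA2* had 744 ± 147 against 833 ± 276 FPKM, and *STE2* 264 ± 3.02 against 339 ± 18.8 FPKM. *MF(ALPHA)1*, a gene of the other mating type, was low in all samples but differed between the strains, at 2.21 to 5.42 FPKM in WT and 0.101 to 0.187 FPKM in the mutant. *STE3*, also of that mating type, had 5.19 ± 0.834 FPKM in WT against 5.07 ± 0.737 FPKM in the mutant. FPKM are fragments scaled to gene length and to the fragments of the sample, and the genes of the table held 16597937 to 19114041 fragments per sample. Fragments outside the table made up 18.3 to 18.7% of the FPKM denominator in WT and 10.6 to 13.4% in *ths1-C268A*. As FPKM are relative to the rest of each sample, more of an mRNA per cell and less of the other RNA cannot be told apart. When protein-coding genes were given the same total in every sample, the median log2 fold change over all genes tested moved from -0.0025 to -0.12. With samples scaled by the median ratio over genes it was -0.013. The shift thus depends on the scaling, which scaling is right was not tested, and changes are best read against both.

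Met4 activates the genes that take up sulfate, reduce it and build it into cysteine, methionine and S-adenosylmethionine. It does not bind DNA well by itself. Cbf1 with Met28 brings it to the letters CACGTG, and Met31 or Met32 to sites with the core CTGTGGC. When sulfur compounds are plentiful, the ubiquitin ligase SCF with the F-box protein Met30 attaches ubiquitin to Met4 and keeps it inactive, and *MET30* is itself a target of Met4. Met4 protein and its ubiquitin were not measured here. Gcn4, the activator of amino acid biosynthesis genes that the integrated stress response (ISR) induces, binds TGACTCA.

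The promoters are shown first, because promoters are where the partners of Met4 bind. Windows from 250 bases before to 50 bases after the start of the coding sequence were read from the RefSeq R64 genome, whose coordinates match those of all 10 members in the table. Both strands were searched for CACGTG (Cbf1), for CTGTGGC (Met31 and Met32) and for TGACTCA (Gcn4). No matches overlapped. In this window CACGTG was present at *MET28* and *MET30*, CTGTGGC at *MET30*, *MUP3* and *MMP1*, and TGACTCA at *MET28*, *MUP1* and *MUP3*. Among 6659 protein-coding genes, CACGTG was present in 2.94% of windows of the same length, CTGTGGC in 1.94% and TGACTCA in 2.72%. *MET4*, *MET31*, *MET32*, *SAM3* and *YCT1* had none of the 3 in this window.

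The 5 transporter windows and those of *MET30* and *MET28* are printed on the coding strand, 5′ to 3′, with matches in capitals. TGAGTCA is TGACTCA read from the other strand, and GCCACAG is CTGTGGC read from the other strand. They lie at chrVIII:25991-26290 (*MUP3*, plus strand), chrXII:17706-18005 (*MMP1*, plus strand), chrVII:599167-599466 (*MUP1*, plus strand), chrXVI:22688-22987 (*SAM3*, plus strand), chrXII:29859-30158 (*YCT1*, plus strand), chrIX:268401-268700 (*MET30*, plus strand) and chrIX:384070-384369 (*MET28*, minus strand).
MUP3: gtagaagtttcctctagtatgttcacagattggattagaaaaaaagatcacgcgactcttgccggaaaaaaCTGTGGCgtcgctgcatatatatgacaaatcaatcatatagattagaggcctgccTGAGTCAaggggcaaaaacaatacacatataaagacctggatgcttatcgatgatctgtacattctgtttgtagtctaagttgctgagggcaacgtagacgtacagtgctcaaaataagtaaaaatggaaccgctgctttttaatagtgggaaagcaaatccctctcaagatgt
MMP1: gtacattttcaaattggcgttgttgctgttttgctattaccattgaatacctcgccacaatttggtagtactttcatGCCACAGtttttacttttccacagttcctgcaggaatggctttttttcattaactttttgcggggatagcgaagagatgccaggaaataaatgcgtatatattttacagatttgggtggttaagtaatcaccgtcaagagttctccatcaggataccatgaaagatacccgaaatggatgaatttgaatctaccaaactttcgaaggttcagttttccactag
MUP1: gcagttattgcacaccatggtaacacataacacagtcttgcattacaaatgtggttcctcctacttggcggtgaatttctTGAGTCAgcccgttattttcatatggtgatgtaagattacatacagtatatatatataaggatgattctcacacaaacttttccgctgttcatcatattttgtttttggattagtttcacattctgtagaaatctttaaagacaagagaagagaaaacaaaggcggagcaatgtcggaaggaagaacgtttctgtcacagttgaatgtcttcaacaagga
SAM3: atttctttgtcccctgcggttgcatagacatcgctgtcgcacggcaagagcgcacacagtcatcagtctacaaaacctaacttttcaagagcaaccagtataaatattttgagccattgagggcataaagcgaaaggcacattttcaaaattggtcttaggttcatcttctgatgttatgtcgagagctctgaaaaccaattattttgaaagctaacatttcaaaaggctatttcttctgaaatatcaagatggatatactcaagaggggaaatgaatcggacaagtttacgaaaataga
YCT1: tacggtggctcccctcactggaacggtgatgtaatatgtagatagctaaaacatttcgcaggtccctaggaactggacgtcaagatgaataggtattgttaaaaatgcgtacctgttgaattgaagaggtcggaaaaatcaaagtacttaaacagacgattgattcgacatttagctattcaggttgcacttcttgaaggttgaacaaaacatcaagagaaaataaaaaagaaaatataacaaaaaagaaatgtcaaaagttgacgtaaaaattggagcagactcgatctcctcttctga
MET30: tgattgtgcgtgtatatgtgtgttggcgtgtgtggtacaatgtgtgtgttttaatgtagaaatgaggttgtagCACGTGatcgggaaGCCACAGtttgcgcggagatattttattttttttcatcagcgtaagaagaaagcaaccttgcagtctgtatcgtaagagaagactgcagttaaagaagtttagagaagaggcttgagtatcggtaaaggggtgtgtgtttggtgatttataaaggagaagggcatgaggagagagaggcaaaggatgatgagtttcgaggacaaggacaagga
MET28: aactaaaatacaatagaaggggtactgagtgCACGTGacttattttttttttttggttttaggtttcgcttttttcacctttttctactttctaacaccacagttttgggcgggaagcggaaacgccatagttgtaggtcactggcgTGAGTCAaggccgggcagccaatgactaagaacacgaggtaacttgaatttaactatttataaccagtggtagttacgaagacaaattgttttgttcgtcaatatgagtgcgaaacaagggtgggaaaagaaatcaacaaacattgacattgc

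At *MUP3*, CTGTGGC began 179 bases and TGAGTCA 124 bases before the start codon. At *MMP1*, whose protein takes up S-methylmethionine, GCCACAG began 173 bases before it. *MET30* had both CACGTG, at 177 bases, and GCCACAG, at 163 bases, and these letters occurred together in 10 of the 6659 windows (0.15%). *MUP1* had TGAGTCA at 170 bases, and *MET28* had CACGTG at 219 bases and TGAGTCA at 103 bases. The matches to the Met31 and Met32 core at *MUP3*, *MMP1* and *MET30* all extend to AAACTGTGGC, letters present in 11 of the 6659 windows (0.165%). This longer form was searched after the matches had been seen. Over 500 bases before the start codon, a window added after the data were seen, CACGTG was present at 5 members, CTGTGGC at 6 and TGACTCA at 3, and in 6.01%, 3.77% and 4.12% of 6655 genes. *SAM3*, *YCT1* and *MET31* had none of the 3 in that window either. A match is only a run of letters, and binding was not measured.

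**Figure D1:**
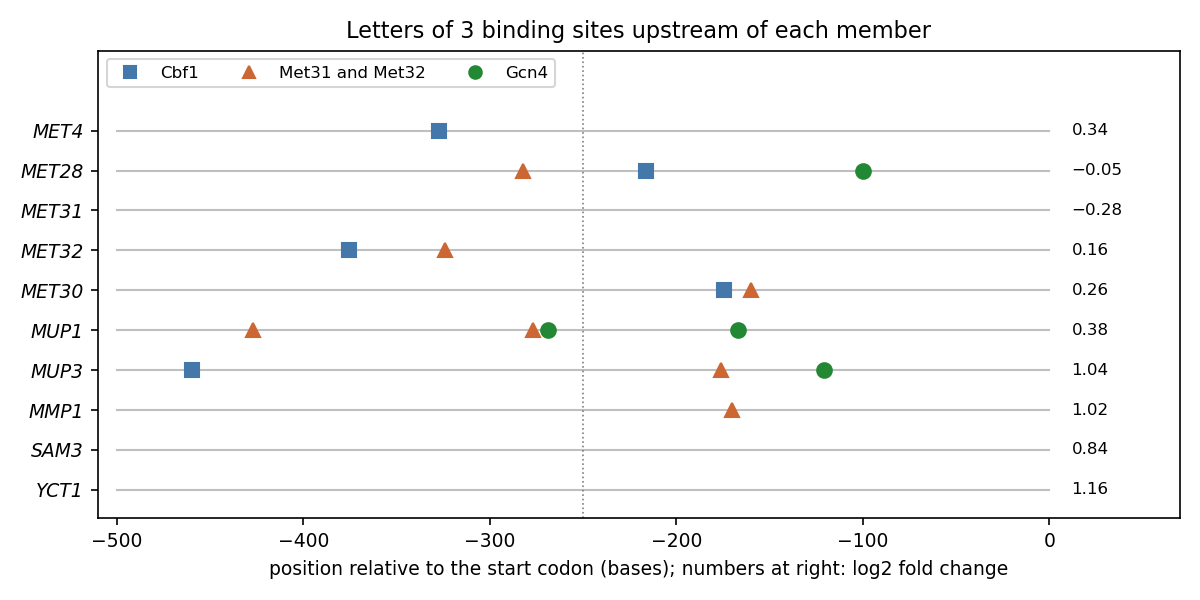
Positions of CACGTG (Cbf1), CTGTGGC (Met31 and Met32) and TGACTCA (Gcn4) on either strand over 500 bases before the start codon of each member, with the log2 fold change (*ths1-C268A* minus WT) at the right and a dotted line at 250 bases. *YCT1* (log2 fold change 1.16) and *SAM3* (0.84) have no match, and *MUP1* (0.38) has 4.

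At 37 °C, the mRNAs of all 5 transporters were higher in *ths1-C268A* than in WT, while of Met4, its partners and Met30 only *MET4* passed the test. The cysteine transporter gene *YCT1* rose 2.23-fold (from the log2(FPKM + 1) scale, as are all fold changes here), the low-affinity methionine permease gene *MUP3* 2.06-fold, the S-methylmethionine permease gene *MMP1* 2.03-fold and the S-adenosylmethionine permease gene *SAM3* 1.79-fold. The gene of the main methionine permease, *MUP1*, rose 1.30-fold and *MET4* 1.26-fold, and these 2 calls were lost in 11 and 10 of 18 alternatives. *MET28*, *MET31*, *MET32* and *MET30* did not pass. In all, 6 of the 10 members were higher and none was lower, where 26.4% of all genes tested were called, 14.2% higher and 12.1% lower (limma on log2(FPKM + 1) over the 6447 genes whose mean reached 1 FPKM, two-sided, Benjamini-Hochberg adjusted p under 0.05). With unadjusted p under 0.05, 7 members were higher and none was lower (21.8% and 19.4% of all genes). With limma-voom on whole fragments, recovered from FPKM and gene length, 4 were higher and none was lower (9.48% and 21.6% of all genes). The median log2 fold change of the 10 was 0.36, against -0.0025 over all genes tested. All 3 *ths1-C268A* samples lay above all WT samples for 7 members, as they did for 24.5% of all genes, and no member had all below, as 21.1% of all genes did (45.6% in either direction).

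**Figure D2:**
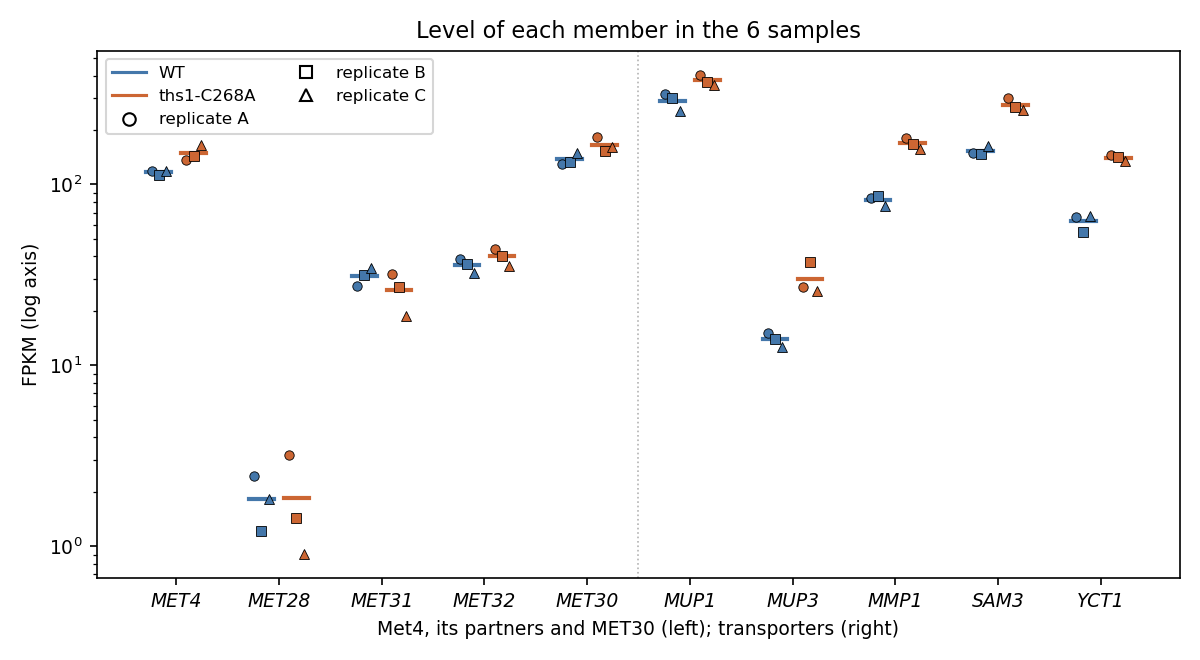
FPKM on a log axis of the 10 members in each sample, with 1 symbol per replicate and a bar at the mean of each strain. All *ths1-C268A* samples sit above all WT samples for the 5 transporters, *MET4* and *MET30*, and the strains overlap for *MET28*, *MET31* and *MET32*.

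*MET4* (YNL103W, chromosome XIV of R64, 427735 to 429753) encodes the bZIP activator itself. Its level was 119, 113 and 119 FPKM in WT, against 137, 143 and 165 FPKM in the mutant. Every *ths1-C268A* sample was above every WT sample, and replicate C was the highest. The log2 fold change was 0.34 (standard error 0.091, adjusted p = 0.0293 from limma), from 117.1 ± 3.15 to 148 ± 14.9 FPKM (SD, n = 3 each). The call did not hold with an equal protein-coding total (log2 fold change 0.22, adjusted p = 0.0886 from limma), after each sample was corrected for its trend of level with gene length (0.23, adjusted p = 0.086) or without WT replicate A (adjusted p = 0.0783), B (0.121) or C (0.0802) or *ths1-C268A* replicate C (0.0531).

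*MET28* (YIR017C, chromosome IX, 383556 to 384119) encodes the bZIP partner that helps hold Met4 and Cbf1 together on DNA. It had the lowest listed values of the members. It was listed at 2.45, 1.22 and 1.83 FPKM in WT, against 3.19, 1.42 and 0.908 FPKM in the mutant. These values rest on 66 fragments over the WT samples and 66 over the *ths1-C268A* samples, and the groups overlap. The log2 fold change was -0.053 (adjusted p = 0.937 from limma). The 95% interval of the fold change runs from 0.507 to 1.83, and differences inside it were not detectable at this depth. An ORF on the opposite strand, YIR017W-A, covers 554 of its 564 coding bases and was listed at 0.155 to 1.67 FPKM over the 6 samples. Strandedness of the libraries is not given in the sources used here, so fragments of *MET28* and YIR017W-A cannot be told apart.

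*MET31* (YPL038W, chromosome XVI, 480535 to 481068) and *MET32* (YDR253C, chromosome IV, 963990 to 964565) encode related zinc-finger proteins that bring Met4 to DNA. *MET31* was 27.5, 31.6 and 34.6 FPKM in WT, against 31.9, 27.3 and 18.8 FPKM in the mutant, with *ths1-C268A* replicate C the lowest of all. *MET32* was 38.5, 36.6 and 32.3 FPKM in WT, against 44.1, 40.4 and 35.6 FPKM in the mutant. Both pairs of groups overlap. The log2 fold change was -0.28 for *MET31* (95% interval -0.70 to 0.14, adjusted p = 0.277 from limma) and 0.16 for *MET32* (95% interval -0.097 to 0.41, adjusted p = 0.316 from limma). The ratio of *MET32* to *MET31* FPKM, which does not depend on how samples are scaled, was 1.40, 1.16 and 0.932 in WT, against 1.38, 1.48 and 1.89 in the mutant, so the groups overlap in this ratio too. Their coding sequences are 65.1% identical over 505 aligned bases, and the longest identical run is 12 bases.

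*MET30* (YIL046W, chromosome IX, 268651 to 270573) encodes the WD40-repeat F-box protein that recruits Met4 to SCF. It was 130.1, 133 and 149.6 FPKM in WT, against 184, 152 and 160.3 FPKM in the mutant. All *ths1-C268A* samples lay above all WT samples, but the nearest values, WT replicate C and *ths1-C268A* replicate B, differed by less than the spread within either strain. The log2 fold change was 0.26 (95% interval 0.035 to 0.49) and did not pass (adjusted p = 0.0833 from limma). The ratio of *MET30* to *MET4* FPKM was 1.18 ± 0.0823 (SD, n = 3) in WT and 1.13 ± 0.195 (SD, n = 3) in *ths1-C268A*, and the groups overlap.

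Of the transporters, *YCT1* (YLL055W, chromosome XII, 30109 to 31704), which encodes the high-affinity cysteine transporter, changed most. Its level was 66.4, 54.7 and 67.3 FPKM in WT, against 145.5, 142 and 135 FPKM in the mutant. The lowest *ths1-C268A* sample was far above the highest WT sample. *YCT1* thus differed by 1.16 on the log2 scale (standard error 0.098, adjusted p = 3.30e-04 from limma), larger than that of 99.1% of the genes tested.

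*MUP3* (YHL036W, chromosome VIII, 26241 to 27881) encodes a low-affinity methionine permease related to Mup1, and was the lowest of the transporters. It was 15.2, 14.0 and 12.6 FPKM in WT, against 27.2, 37.3 and 25.8 FPKM in the mutant. *ths1-C268A* replicate B stood above the other two, and without it the log2 fold change was 0.88 (adjusted p = 0.0066 from limma) in place of 1.04 (standard error 0.15, adjusted p = 0.00342).

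*MMP1* (YLL061W, chromosome XII, 17956 to 19707) encodes the permease of S-methylmethionine, a methyl donor that plants make and that yeast can use as a source of methionine. Its level was 84.4, 86.4 and 76.2 FPKM in WT, against 181, 168 and 157 FPKM in the mutant, with no overlap. Its log2 fold change was 1.02 (standard error 0.089, adjusted p = 3.30e-04 from limma). The gene beside it, *MHT1*, encodes the methyltransferase that uses S-methylmethionine to make methionine from homocysteine. It is transcribed the other way, 342 bases lie between both coding sequences, and it was 41.4 ± 1.96 FPKM in WT against 34.4 ± 6.26 FPKM in the mutant (SD, n = 3 each, log2 fold change -0.27, adjusted p = 0.141 from limma). *MHT1* passed as lower without *ths1-C268A* replicate A (log2 fold change -0.41, adjusted p = 0.0139 from limma). The ratio of *MMP1* to *MHT1* FPKM was 1.91 to 2.08 in WT and 4.34 to 5.42 in *ths1-C268A*.

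*SAM3* (YPL274W, chromosome XVI, 22938 to 24701) encodes the permease of S-adenosylmethionine. It was 150.2, 147 and 164 FPKM in WT, against 299.9, 269 and 259 FPKM in the mutant, with no overlap. On the log2 scale the difference was 0.84 (standard error 0.090, adjusted p = 8.59e-04 from limma). *SAM4*, 385 bases downstream on the same strand, encodes the methyltransferase that uses S-adenosylmethionine to make methionine from homocysteine. Its level rose from 100.2 ± 11.5 to 165 ± 21.8 FPKM (SD, n = 3 each, log2 fold change 0.71, adjusted p = 0.00599 from limma). The ratio of *SAM3* to *SAM4* FPKM was 1.37 to 1.88 in WT and 1.42 to 1.89 in *ths1-C268A*, and the groups overlap. *MHT1* and *SAM4* were singled out for their place beside members. The coding sequences of *MMP1* and *SAM3* are 70.4% identical over 1729 aligned bases with a longest identical run of 20 bases.

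*MUP1* (YGR055W, chromosome VII, 599417 to 601141) encodes the high-affinity methionine permease, which also carries cysteine, and was the most abundant member in both strains. Its level was 315, 300.0 and 256 FPKM in WT, against 404, 369.8 and 354 FPKM in the mutant. The groups do not overlap, but the difference was the smallest among the transporters, at 0.38 on the log2 scale (standard error 0.10, limma adjusted p = 0.0327). The call did not hold with an equal protein-coding total (log2 fold change 0.26, adjusted p = 0.103 from limma), after the gene length correction (0.29, adjusted p = 0.0717), or with WT replicate A (adjusted p = 0.0545), B (0.0927) or C (0.107) or *ths1-C268A* replicate A (0.0601) or B (0.0644) left out. The calls of *YCT1*, *MUP3*, *MMP1* and *SAM3* held in each of 18 alternatives for which a log2 fold change was computed, with the largest adjusted p at 0.0192 for *MUP3*. With a log2 fold change of at least 1 also required, *YCT1*, *MUP3* and *MMP1* were called and *SAM3* was not (1.21% of all genes were called higher). Without WT replicate A, B or C, 4 members were higher, where 456, 356 and 414 of the 6447 genes tested were. With *ths1-C268A* replicate A, B or C left out, 5 members were higher, where 1088, 601 and 785 of the genes tested were.

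**Figure D3:**
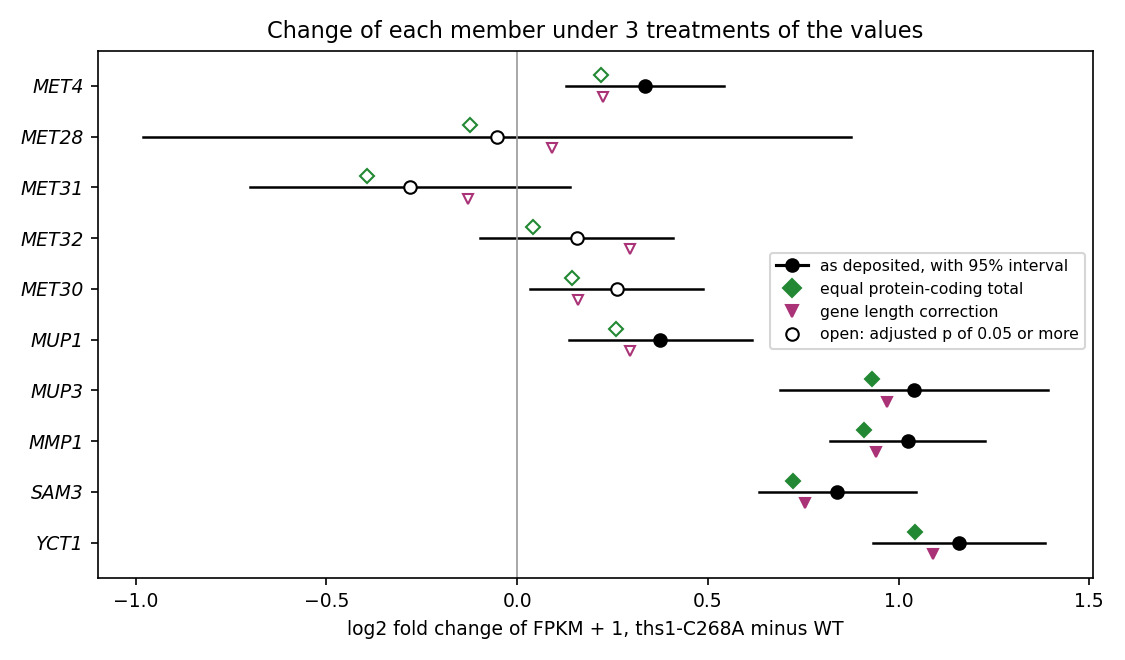
Log2 fold change (*ths1-C268A* minus WT) of each member with its 95% interval on the values as deposited, and the log2 fold change with an equal protein-coding total and after the gene length correction. Filled symbols passed an adjusted p of 0.05 in limma, as *YCT1*, *MUP3*, *MMP1* and *SAM3* did under all 3 treatments and *MET4* and *MUP1* did only as deposited.

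The summed level of the transporters was higher in every *ths1-C268A* sample than in any WT sample, and *MUP1* held a smaller share of it. The summed FPKM of the 5 transporters was 631, 602 and 576 in WT, against 1058, 987 and 930.5 in the mutant. *MUP1* made up 49.9, 49.9 and 44.4% of it in WT and 38.2, 37.5 and 38.1% in *ths1-C268A*, which does not depend on how samples are scaled. The share of *YCT1* was 10.4 ± 1.30% (SD, n = 3) in WT and 14.2 ± 0.402% (SD, n = 3) in *ths1-C268A*, and that of *MMP1* went from 13.2 to 14.4% in WT to 16.8 to 17.1%. The share of *MUP3* was the smallest, at 2.19 to 2.41% in WT and 2.57 to 3.78% in *ths1-C268A*. The shares of *SAM3* overlap between the strains. The ratio of *MUP1* to *MUP3* FPKM, the high-affinity over the low-affinity permease, was 20.3 to 21.5 in WT and 9.92 to 14.9 in *ths1-C268A*.

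**Figure D4:**
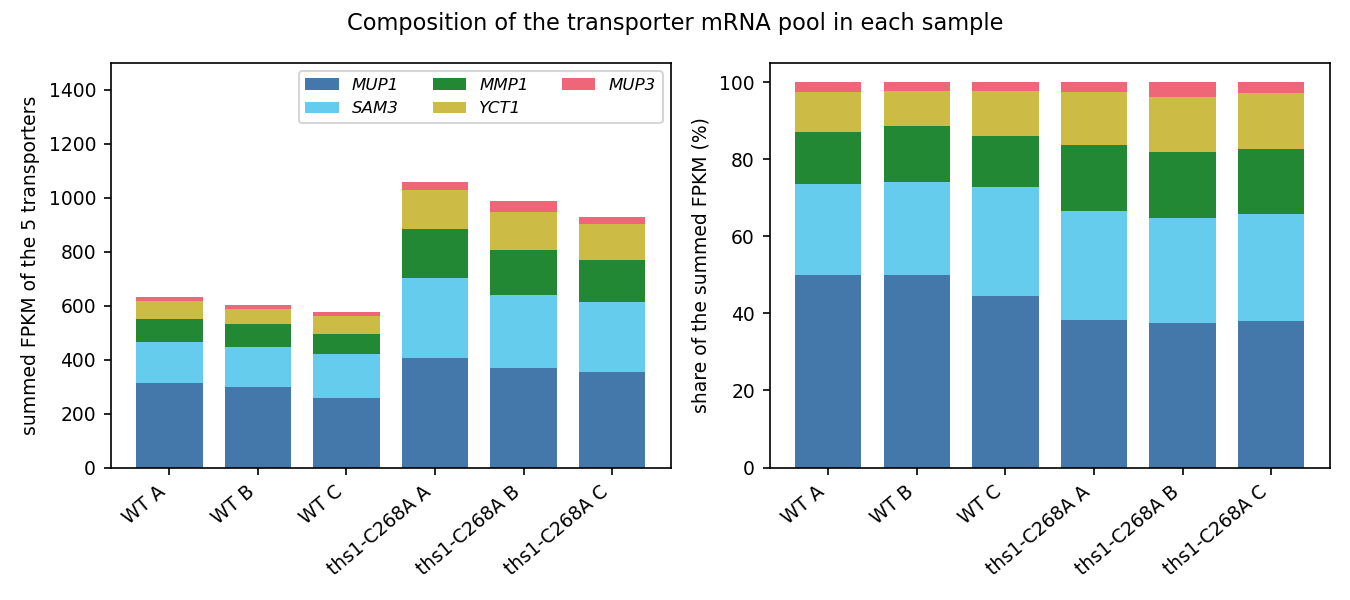
FPKM of the 5 transporters stacked in each sample (left) and their share of the sum in percent (right). The sum lies between 576 and 631 FPKM in WT, below the 930.5 to 1058 FPKM in *ths1-C268A*, and the *MUP1* share between 44.4 and 49.9% in WT and between 37.5 and 38.2% in *ths1-C268A*.

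Ordered by mean FPKM, the members in WT were *MUP1*, *SAM3*, *MET30*, *MET4*, *MMP1*, *YCT1*, *MET32*, *MET31*, *MUP3* and *MET28*. The ranges of *SAM3* and *MET30* and of *MET32* and *MET31* overlap between neighbours in that order, and those of the other neighbours do not. In *ths1-C268A*, *MMP1* came before *MET30* and *MET4*, and *MUP3* before *MET31*. There the ranges overlap between *MMP1* and *MET30*, *MET30* and *MET4*, *MET4* and *YCT1*, *MET32* and *MUP3*, and *MUP3* and *MET31*. *MUP1*, at 290.4 FPKM in WT, was above 92.7% of the genes tested, and *MUP3*, at 13.9 FPKM, was above 13.5%.

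Fold change was related to gene length in these libraries, which bears on this comparison because the transporters are longer than *MET28*, *MET31* and *MET32*. Over 6176 protein-coding genes, log2 fold change and coding length had a Spearman correlation of 0.371, a description across genes that are no replicates. The trend differed between samples of 1 strain. The deviation of each sample from the mean of all 6 correlated with length at -0.14, -0.32 and -0.43 in WT, against -0.084, 0.36 and 0.39 in the mutant. Genes of about the coding length of each transporter (1596 to 1764 bases, within a ratio of 0.8 either way) had median log2 fold changes of 0.059 to 0.084, and 19.1 to 20.4% of them were higher. Genes of the length of *MET28*, *MET31* and *MET32* (534 to 576 bases) had medians of -0.095 to -0.11, and 6.21 to 7.08% of them were higher. After each sample was corrected for this trend, the log2 fold changes were 1.09 for *YCT1*, 0.97 for *MUP3*, 0.94 for *MMP1* and 0.76 for *SAM3*, all past the threshold, and -0.13 for *MET31* and 0.30 for *MET32*, which did not pass (adjusted p = 0.553 and 0.0685 from limma).

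The other genes of the Met4 machinery did not pass the test used for the members. Of 10 genes for the cofactor Cbf1, SCF and its partners, and the Cdc48 machinery that takes Met30 off SCF, none was higher and none was lower in limma. Over all genes tested, 14.2% were higher and 12.1% lower. At an unadjusted p under 0.05, 4 were higher and 1 was lower (21.8% and 19.4% of all genes). With limma-voom none was higher and 1 was lower (9.48% and 21.6% of all genes). Without *ths1-C268A* replicate A, 3 of them were higher in limma, and 1 was after the gene length correction or with a filter of 10 FPKM. With an equal protein-coding total, 1 was lower. The median log2 fold change was 0.15. *CBF1*, named after its value was seen, was 128 ± 6.64 FPKM in WT against 132 ± 6.79 FPKM in the mutant (SD, n = 3 each).

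Many genes of the pathway that Met4 controls were higher, those of sulfate reduction among them. The shares over all genes tested, 14.2% higher and 12.1% lower, apply to each of the lists. The lists were written by gene role but with earlier results of these data known, so their counts are descriptions. Of 9 genes of sulfate uptake and assimilation, 5 were higher and none was lower (median log2 fold change 0.57), with *MET16*, the PAPS reductase gene, at 1.18, *MET14*, the adenylylsulfate kinase gene, at 1.06, and the sulfite reductase subunit genes *MET10* and *MET5* at 0.85 and 0.83. The sulfate permease genes *SUL1* and *SUL2*, named after their values were seen, had log2 fold changes of 0.097 and 0.051 (adjusted p = 0.369 and 0.731 from limma). Of 11 tested genes of homocysteine, methionine and S-adenosylmethionine, 6 were higher and none was lower (median 0.51). On the log2 scale *MET6*, which encodes methionine synthase, rose by 2.33 and *MET13*, which supplies its methyl group from folate, by 1.11. The S-adenosylmethionine synthetase genes *SAM1* and *SAM2*, which are closely alike in sequence and can share fragments, rose by 1.32 and 1.21. Of 6 genes of transsulfuration and glutathione, 5 were higher and none was lower (median 0.57), with *STR3* (1.32), *CYS3* (0.94), *STR2* (0.63) and *GSH1* (0.52). *CYS3* lost its call when WT replicate B or C was left out (adjusted p = 0.0636 and 0.0801 from limma), and 3 of the 6 were then higher.

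Of 10 tested genes for other transporters of sulfur compounds, 3 were higher and none was lower (median log2 fold change 0.11). With 1 sample left out, the number higher ran from 1 (without WT replicate B or C) to 4. *SSU1*, the sulfite efflux pump, had 69.0 ± 4.14 FPKM in WT and 159 ± 9.72 FPKM in the mutant (SD, n = 3 each), a 2.29-fold rise (adjusted p = 1.36e-04 from limma). *BPT1*, a vacuolar transporter of glutathione conjugates, rose by 0.46 on the log2 scale, and the glutathione transporter gene *OPT1* by 0.33. *OPT1* did not pass with an equal protein-coding total (adjusted p = 0.107 from limma), after the length correction (0.113) or with a WT replicate (0.077 to 0.133) or *ths1-C268A* replicate B (0.0858) or C (0.0827) left out. *BPT1* lost its call when WT replicate B or C was left out (adjusted p = 0.0586 and 0.0506 from limma), and its log2 fold change fell to 0.23 after the gene length correction (adjusted p = 0.048 from limma, and 0.103 with the replicate block as well).

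Of 8 broad amino acid permeases that also take methionine or cysteine, 1 was higher and 1 was lower (median log2 fold change -0.02). *GAP1*, the general amino acid permease, had 122 ± 14.9 FPKM in WT and 316 ± 85.7 FPKM in the mutant (SD, n = 3 each), a log2 fold change of 1.33. *TAT1*, a permease of branched-chain and aromatic amino acids, fell by 0.66 on that scale. Of 13 genes of permease sensing and turnover, 4 were higher and none was lower (median 0.23). Leaving out *ths1-C268A* replicate A gave 7 higher, WT replicate B gave 1, and each other sample gave 2. *BUL1*, an adaptor of the ubiquitin ligase Rsp5, rose by 0.55, *STP2*, an activator of permease genes, by 0.41, the kinase gene *NPR1* by 0.40 and *PTR3*, of the amino acid sensor, by 0.27. *STP2* lost its call when WT replicate B was left out (adjusted p = 0.0533 from limma), and *NPR1* and *PTR3* lost the call in 12 and 14 of 18 alternatives. Of 5 genes of general amino acid control, *GCN4* was higher (log2 fold change 0.44, adjusted p = 0.0291 from limma), and it lost the call with an equal protein-coding total (0.0616) and with a WT replicate (0.0759 to 0.119) or *ths1-C268A* replicate B (0.0624) or C (0.0524) left out. Over all 8 lists, 25 of 72 tested genes were higher and 1 was lower, 36 and 3 at an unadjusted p under 0.05 (21.8% and 19.4% of all genes), and 21 and 3 with limma-voom (9.48% and 21.6% of all genes). Of the lists with none lower in limma, the Met4 cofactor list and that of other sulfur transporters each had 1 lower at an unadjusted p under 0.05 and 1 with limma-voom. The Gcn4 protein is set by translation, which mRNA levels do not show.

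**Figure D5:**
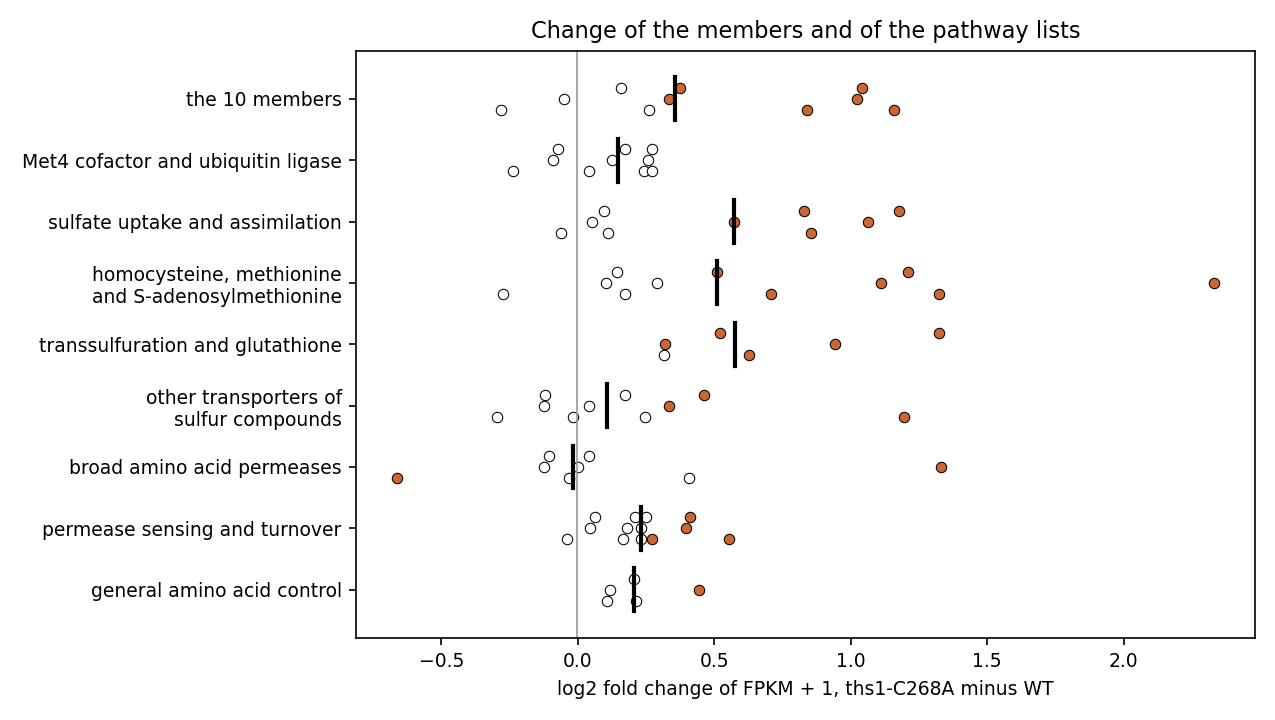
Log2 fold change (*ths1-C268A* minus WT) of the 10 members and of the tested genes of 8 pathway lists, filled where the adjusted p from limma was under 0.05, with a bar at each median and a grey line at the median of all genes tested. The medians are 0.57, 0.51 and 0.57 for sulfate, methionine and transsulfuration genes and 0.15 for the Met4 cofactor and ubiquitin ligase genes.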

How the data were processed

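The authors deposited 1 table of FPKM values with gene lengths, aligned with HISAT2 per the labels. The sources used here name no counting tool, annotation or strandedness. FPKM times length gave whole fragments (within 0.01) for 100% of values above 0. With limma 3.58.1 in R 4.3.3, log2(FPKM + 1) was fitted with strain as the only term and a variance trend, for the 6447 genes whose mean reached 1 FPKM, and p-values were adjusted over all of them (Benjamini-Hochberg, threshold 0.05). The fit was tested on simulated data with the same noise in both strains and no trend with gene length, so that test does not cover these features of the samples. A count of 0 fragments allows up to 3, or 0.137 to 0.151 per 1e6 fragments, for counting error only. Fragments of replicates of 1 strain differed beyond sampling noise (chi-square per degree of freedom 7.83 to 54.2).

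The members and lists were chosen by gene role, with earlier results of these data known. The text names all members, up to 4 genes of each list that passed, those with the smallest p, the 3 genes most like *MET4*, *YCT1* and *MET31* (the members with the highest and the lowest log2 fold change), and strain markers. Alternatives were other pseudocounts (0.1 and 5), filters (none and 10 FPKM), median-ratio and protein-coding scaling, limma-voom on fragments, no variance trend, a loess correction for gene length (span 0.5), a replicate block, the block with that correction, each sample left out, an adjusted p under 0.01 and, for counts of calls only, a log2 fold change of at least 1. Motifs were sought in RefSeq R64, and coding sequences aligned with Biopython 1.88. A few genes are not reported here.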

Additional observations from a re-analysis of the deposited data

How the results depend on the processing

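Of the 10 log2 fold changes, those of *YCT1* (1.04 to 1.21), *MUP3* (0.88 to 1.14), *MMP1* (0.91 to 1.08) and *SAM3* (0.72 to 0.89) kept their call in all 18 alternatives that give a log2 fold change, and *MET30* (0.14 to 0.32), *MET31* (-0.44 to -0.074) and *MET32* (0.040 to 0.30) stayed below the threshold in all 18. *MET4* and *MUP1* lost the call with an equal protein-coding total (0.22 and 0.26), limma-voom (0.22 and 0.26), the gene length correction (0.23 and 0.29), the replicate block with that correction (0.23 and 0.29) and an adjusted p under 0.01 (0.34 and 0.38), *MET4* also with the replicate block (0.34) and *MUP1* without the variance trend (0.38). The low counts of *MET28* limit it: it falls below a filter of 10 FPKM, and its sign turned with the length correction, alone (0.090) or together with the replicate block (0.090), but not with the block alone (-0.053). Leaving out 1 sample, the ranges were 0.26 to 0.39 for *MET4*, 0.29 to 0.44 for *MUP1*, -0.37 to 0.19 for *MET28*, 4 to 5 members higher, 356 (without WT replicate B) to 1088 (without *ths1-C268A* replicate A) genes higher and 290 to 1057 lower of all, and 17 to 33 list genes higher and 1 to 2 lower.

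Members higher numbered 3 with a log2 fold change of at least 1, which *SAM3* did not reach. Over all genes, 916 were higher and 783 lower, but 524 and 1285 with an equal protein-coding total, 611 and 1390 with limma-voom, 296 and 248 at an adjusted p under 0.01, and 78 and 134 with a log2 fold change of at least 1. List genes lower numbered 3 with an equal protein-coding total or limma-voom in place of 1, and with a log2 fold change of at least 1, 9 list genes were higher and 0 lower. Members with CACGTG went from 2 to 5 and with CTGTGGC from 3 to 6 over 500 bases. Deviations of samples with the same letter correlated at -0.232, 0.0618 and -0.0115, and those of samples with other letters at -0.205 to 0.209. So few values cannot decide whether the letters A, B and C pair the samples. The replicate block gave 683 higher and 593 lower genes.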

Other observations

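By Pearson's r over the 6 samples on log2(FPKM + 1), the genes most like *MET4* were *ATG9* (r = 0.996), *SIS2* (0.994) and *PPQ1* (0.994), those most like *YCT1* were *VTH1* (0.998, a gene with a near-identical copy elsewhere in the genome), *PYC1* (0.998) and *DLD3* (0.996), and those most like *MET31* were *RPS27B* (0.988), *URM1* (0.986) and *SPT8* (0.986). Such values describe 6 points that share strain and library and are the top of 6447, and they do not show the size of a change. *VTH1* had a log2 fold change of 0.31 and did not pass (adjusted p = 0.511 from limma), while *PYC1* (0.86) and *DLD3* (1.00) passed.

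Thr codons, at which a ThrRS without editing can place Ser, made up 3.21% of the codons of *MET28*, the lowest share among the members, and 7.66% of those of *MET30*, the highest, against a median of 5.57% over 5900 genes with at least 100 codons. Among the transporters that changed most, the share was 6.03% for *YCT1*, 4.95% for *MUP3*, 4.29% for *MMP1* and 4.43% for *SAM3*.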
